A study of Tupaia belangeri with 6 samples.

Results

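SUB1 and the loci named after it in the tree shrew genome are described here in prefrontal cortex (PFC) of both sexes. The members were the loci whose gene name was SUB1 alone or SUB1 followed by "li" and a number. They numbered 6 of 95863 loci, namely SUB1, SUB1li1, SUB1li2, SUB1li3, SUB1li4 and SUB1li6. What the suffix stands for is not given in the sources used here, and loci that carry it are called gene-like copies after their names alone. Which member is the gene of origin was not tested, and the gene order around SUB1 in another annotation is found at SUB1li3, as described below, rather than at the locus named SUB1. Of the 6 members, 4 were above 0 TPM (the abundance of a transcript per length, scaled to the library total) in at least 1 library, and these 4 also passed the filter on low values, at least 0.1 TPM in 3 or more libraries. The set was chosen by name, and was selected on the TPM values of SUB1li1, which were low in the libraries of one sex in this same comparison. The female and male levels of the members are therefore given as a description, without a test.

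SUB1 encodes a small nuclear protein, also called positive cofactor 4, that binds single-stranded DNA and acts as a coactivator of RNA polymerase II. It contacts general transcription factors at promoters and also takes part in the response to DNA damage and in the processing of transcript ends. Messenger RNAs of widely expressed genes can be copied back into mammalian genomes, which leaves intronless copies at other places. How each copy of SUB1 arose was not tested.

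Libraries of polyadenylated RNA came from PFC of adult tree shrews (Tupaia belangeri), 3 females (numbers 1, 3 and 4) and 3 males (numbers 1, 4 and 5), with 1 library per animal. Each male is listed at a greater age than each female, so age and sex cannot be told apart in this comparison. The tables hold mean coverage, FPKM and TPM per locus but no read counts, and TPM summed to between 950532 and 971492 in the 6 libraries. The library protocol names no step that keeps the strand, so reads from a locus inside a gene on the opposite strand cannot be told apart from reads of that gene. How reads that fit several copies were divided is not given in the sources used here, which makes the split between near-identical copies uncertain.

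Neuronal markers were high, as in any nervous tissue, and no marker particular to cortex was examined. Of the 6 listed, 5 were found, and these summed to 5613 to 7478 TPM, and SNAP25, a protein of synaptic vesicle release, was at 3088 to 4861 TPM, whereas DRD1, the 1 of 4 listed markers of striatal projection neurons that was found, was at 1.20 to 7.06 TPM. Markers of red blood cells moved with sex, and limma called 2 of them (HBQ1 and HBG, adjusted p = 0.00976 for each), where 0.0143% of autosomal genes were called. Without its trend limma called 0 autosomal genes, these included. The 3 of 5 that were found (HBQ1, HBG and ALAS2) summed to 1275 to 2542 TPM for females but 62.7 to 101 TPM for males, and none of the 3 was at 0 throughout. Of the oligodendrocyte markers, 2 of the 4 listed were found. MAG was at 246.6 to 345.5 TPM for females but 63.4 to 145.6 TPM for males and did not pass the test, and MBP overlapped between the sexes, at 7.07 to 13.7 TPM. Of the choroid plexus genes, AQP1 was higher in each female than in any male and TTR overlapped. Of the 4 endothelial genes, CLDN5 (33.5 to 60.7 TPM for females but 23.2 to 28.9 TPM for males) and FLT1 did not overlap and were higher in females, without passing the test, whereas VWF and PECAM1 overlapped. The sums of neuronal, astrocyte and microglial markers overlapped. Of the astrocyte genes, ALDH1L1 was at 27.3 to 50.8 TPM for females but 7.12 to 27.4 TPM for males (log2 difference 1.09, limma unadjusted p = 0.0406 and adjusted p = 0.925), with overlap. Loci without strand held 2.30% to 3.33% of all TPM in females and 5.16%, 2.67% and 7.88% in males 1, 4 and 5. The part of these differences in the levels of SUB1li1 was not tested. In bulk tissue, fewer cells of a type and less RNA per cell cannot be told apart.

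The locus that bears the plain name SUB1 was close to silent. It (locus MSTRG.3892) lies on the plus strand of chromosome 1 (206660319 to 206663270 in TS_3.0, 2952 bp), inside FARSB, a subunit of phenylalanyl-tRNA synthetase encoded on the minus strand, and also inside an unnamed gene on the plus strand. Females 1, 3 and 4 had 0.526, 0.350 and 0 TPM, and males 1, 4 and 5 had 0, 0.548 and 0.828 TPM. The sexes overlapped, each with 1 library at 0. If the transcript fills the locus, a count of 0 allows up to 3 reads, or 0.0991 TPM in female 4 and 0.112 TPM in male 1, and a spliced, shorter transcript would have a higher limit. These limits leave out how reads were divided among copies. FARSB around it was at 82.8 ± 24.8 TPM (SD, n = 3) among females, compared with 92.8 ± 21.99 TPM (SD, n = 3) among males.

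SUB1li3 carried a high and even level. It (locus MSTRG.5154) lies on the minus strand of chromosome 10 (31403899 to 31495881, 91.98 kb). Its level was 204.4, 213.6 and 212.1 TPM in females 1, 3 and 4, against 221.1, 182.2 and 215.8 TPM in males 1, 4 and 5. Male 4 was the lowest library and male 1 the highest, and the sexes overlapped. The mean was 210.1 ± 4.93 TPM (SD, n = 3) among females, compared with 206.4 ± 21.1 TPM (SD, n = 3) among males, a female minus male difference of 0.030 in log2(TPM + 1). Its coefficient of variation over the 6 libraries was 6.65%, against a median of 18.9% for the 1442 stranded genes within 2-fold of its mean level, of which 1.87% had a lower one. The mean level stood at the 97.9th percentile of stranded loci above 0 TPM.

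The genes around SUB1li3 were those that flank SUB1 in another tree shrew annotation. In the RefSeq annotation of the assembly TupChi_1.0, which holds 1 gene named SUB1, the nearest named protein-coding genes are ZFR, MTMR12 and GOLPH3 on one side and NPR3 and TARS1 on the other. All 5 were found beside SUB1li3 on chromosome 10, in the same order, and none of them lies beside the locus named SUB1. In the human genome SUB1 also lies between NPR3 and ZFR. Of these neighbours, ZFR, an RNA-binding zinc finger protein, was at 122.9 TPM on average in females and 147.9 TPM in males, and GOLPH3, a protein of the Golgi membrane, at 146.9 and 152.3 TPM.

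SUB1li2 had the highest TPM of the members, and lies between RALY and NECAB3, which enclose several named genes in another annotation. It (locus MSTRG.63861) lies on the minus strand of chromosome 9 (74002072 to 74138454, 136.4 kb), between RALY, an RNA-binding protein, and NECAB3, a calcium-binding protein. Females 1, 3 and 4 had 340.3, 233.6 and 420.6 TPM, and males 1, 4 and 5 had 297.8, 408.2 and 382.3 TPM. Female 3 was the lowest library and female 4 the highest, so the males lay within the range of the females. The means were 331.5 ± 93.8 TPM (SD, n = 3) among females, compared with 362.8 ± 57.7 TPM (SD, n = 3) among males, a difference of −0.16 in log2(TPM + 1). Its coefficient of variation was 20.7%, against a median of 18.6% for the 800 stranded genes within 2-fold of its level.

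In the RefSeq annotation, 4 named protein-coding genes lie between RALY and NECAB3, namely CHMP4B (membrane scission), ZNF341 (a zinc finger factor), PXMP4 (a peroxisomal membrane protein) and E2F1 (a cell cycle transcription factor). None of these 4 names, with or without a suffix, is held by the abundance tables. RALY ends 111099 bp before SUB1li2 starts, and whether the 4 genes lie inside SUB1li2 or beside it was not tested. The relation of TPM to coverage also set the locus apart. For loci without strand, TPM was a fixed multiple of mean coverage in each library, so that this multiple gives the TPM expected of a single transcript that fills the locus. The TPM of SUB1li2 was 28.9 to 50.6 times that value over the 6 libraries, and the median of its ratios exceeded that of 99.3% of the 8935 stranded loci with a mean of at least 10 TPM, whose median was 1.59. SUB1li3 was at 7.94 to 8.46 times that value, and SUB1li1 at 1 to 1.007 times in the 5 libraries where it was above 0. Mean coverage of SUB1li2 was 9.94 to 12.8 reads per base, and that of SUB1li3 was 26.6 to 38.6. How much of the TPM of SUB1li2 belongs to a copy of SUB1 and how much to other transcripts of the interval was not tested.

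SUB1li1 was near 0 in every female and well above 0 in every male. It is a 592 bp locus (MSTRG.4260) on the minus strand of chromosome 1 (216500530 to 216501121), inside PDE6D, a prenyl-binding chaperone encoded on the plus strand. Females 1, 3 and 4 had 0, 0.200 and 1.32 TPM, and males 1, 4 and 5 had 54.4, 21.9 and 47.8 TPM. The lowest male was 16.6 times the highest female, and within the males the highest was 2.48 times the lowest. The mean was 0.506 ± 0.710 TPM (SD, n = 3) among females, compared with 41.4 ± 17.2 TPM (SD, n = 3) among males. On the log2(TPM + 1) scale, which understates changes of low values, the sexes differed by −4.81. Across the 6 libraries its range on this scale was 5.79.

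The depth of SUB1li1 can be stated in reads, because its length and coverage give whole reads where it was low. Mean coverage times length was 150 bases in female 3 and 1200 bases in female 4, which equals 1 and 8 reads of 150 bp, and 0 in female 1. In males 1, 4 and 5 the same product equals 290.3, 103.3 and 234.5 reads. In total the females held 9 such reads and the males 628.1. A count of 0 in female 1 allows up to 3 reads, or 0.543 TPM, so low levels there were not detectable at this depth. These limits cover counting error only, and both reads of a pair are counted. By mean coverage, SUB1li1 in male 1 (73.5 reads per base) and in male 5 (59.4) exceeded both SUB1li2 and SUB1li3 in the same libraries, whereas by TPM it stayed below both.

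SUB1li4 and SUB1li6 were listed at 0 TPM in all 6 libraries. SUB1li4 (TSDBGID.8470) is a 384 bp locus on chromosome 13 (47416274 to 47416657), which corresponds to 128 codons if read throughout. If its transcript fills the locus, a count of 0 allows up to 0.762 to 0.980 TPM in the 6 libraries. This limit covers counting error only, and not how reads were divided among copies. SUB1li6 (TSDBGID.14768) spans 29.2 kb on chromosome 19 (36681800 to 36710956), and both lie on the minus strand. No other locus overlaps either of them.

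**Figure D1:**
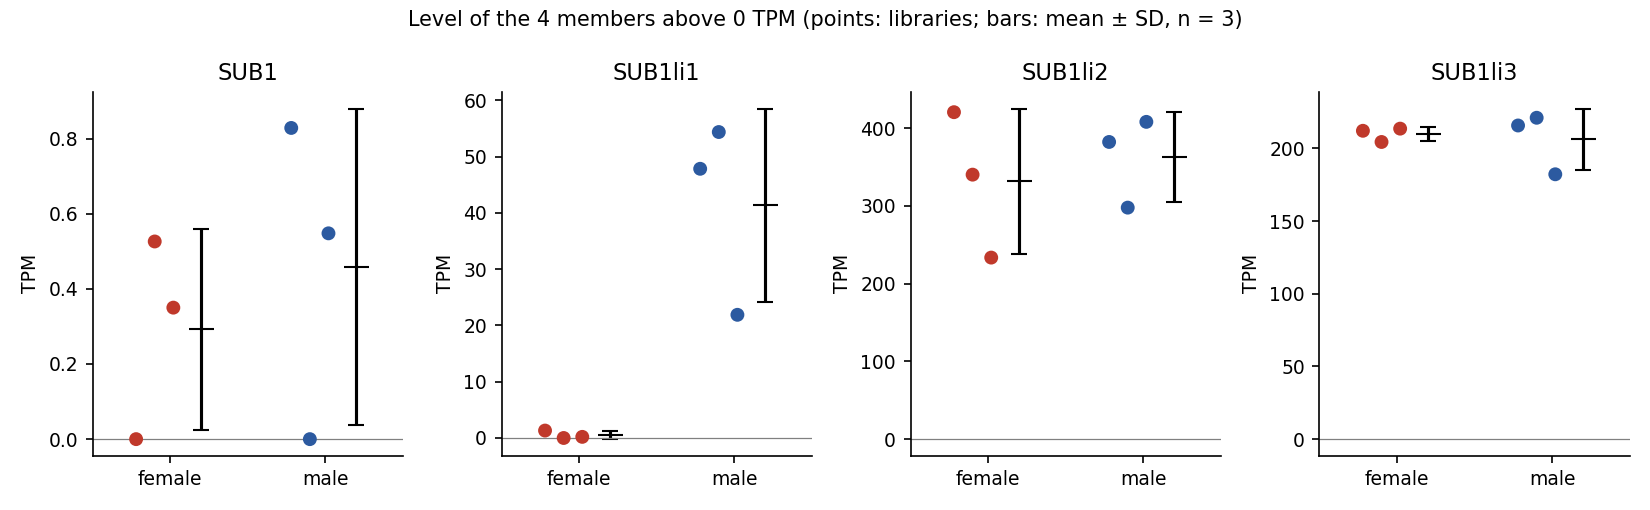
TPM of SUB1, SUB1li1, SUB1li2 and SUB1li3 in 3 female (red) and 3 male (blue) libraries, with a separate linear axis from 0 for each member and the mean ± SD (n = 3) beside the points. SUB1li1 lies at or under 1.32 TPM in the females and between 21.9 and 54.4 TPM in the males, while the sexes overlap for the other 3 members.

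Among the 4 members that passed the filter, SUB1li1 was the one whose sexes did not overlap. Over all autosomal genes tested, the sexes did not overlap for 9.81%, and every male lay above every female for 4.97%. The order of the mean levels was SUB1li2, SUB1li3, SUB1li1 and SUB1. SUB1li3 lay above SUB1li1 in all 6 libraries and below SUB1li2 in all 6. Female 3 brought SUB1li2 and SUB1li3 closest, at 233.6 and 213.6 TPM. SUB1li1 and SUB1 exchanged their order, since female 1 and female 3 had more of SUB1 and the other animals more of SUB1li1.

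Whether a low copy was offset by another was read from the sums. The 6 members together reached 545.2, 447.7 and 634.1 TPM in females 1, 3 and 4, against 573.3, 612.8 and 646.8 TPM in males 1, 4 and 5. SUB1li1 made up 0, 0.0446% and 0.208% of this sum in females 1, 3 and 4, against 9.48%, 3.57% and 7.40% in males 1, 4 and 5. Its mean share was 0.0842% ± 0.109 (SD, n = 3) among females, compared with 6.82% ± 2.998 (SD, n = 3) among males. The sums of the sexes overlapped, with means of 542.3 ± 93.2 TPM (SD, n = 3) and 611.0 ± 36.8 TPM (SD, n = 3).

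No member had its 3 females above its 3 males. Without SUB1li1, the remaining members summed to 541.8 ± 92.7 TPM (SD, n = 3) among females, compared with 569.6 ± 44.1 TPM (SD, n = 3) among males. SUB1li2 alone ranged over 187.1 TPM between libraries, more than the 54.4 TPM over which SUB1li1 ranged, so an offset of the size of SUB1li1 lies within the spread of SUB1li2. The sum without SUB1li2, whose values may hold other transcripts, gives a narrower view. It was 205.0, 214.2 and 213.5 TPM in females 1, 3 and 4, against 275.5, 204.7 and 264.4 TPM in males 1, 4 and 5. Males 1 and 5 lay above every female by this sum, and male 4 lay just below every female. Like the sum of all 6 members, it holds SUB1li1, whose values chose the set. SUB1li1 averaged 0.506 TPM in females and 41.4 TPM in males. In log2(TPM + 1) the sexes differed by −0.18 for all 6 members and by −0.22 without SUB1li2, in both cases with overlap. Single libraries moved both values. The difference of all 6 members was −0.053 without female 3 and −0.30 without female 4, and that of the members other than SUB1li2 was −0.14 without male 1 and −0.35 without male 4.

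SUB1li1 was set beside the expressed copies library by library. Over the 6 libraries, each of which sets the depth and composition behind all 3 values, Pearson's r of log2(TPM + 1) was 0.28 with SUB1li2 and 0.0095 with SUB1li3, and −0.44 between SUB1li2 and SUB1li3. With 6 points these values are a description only.

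**Figure D2:**
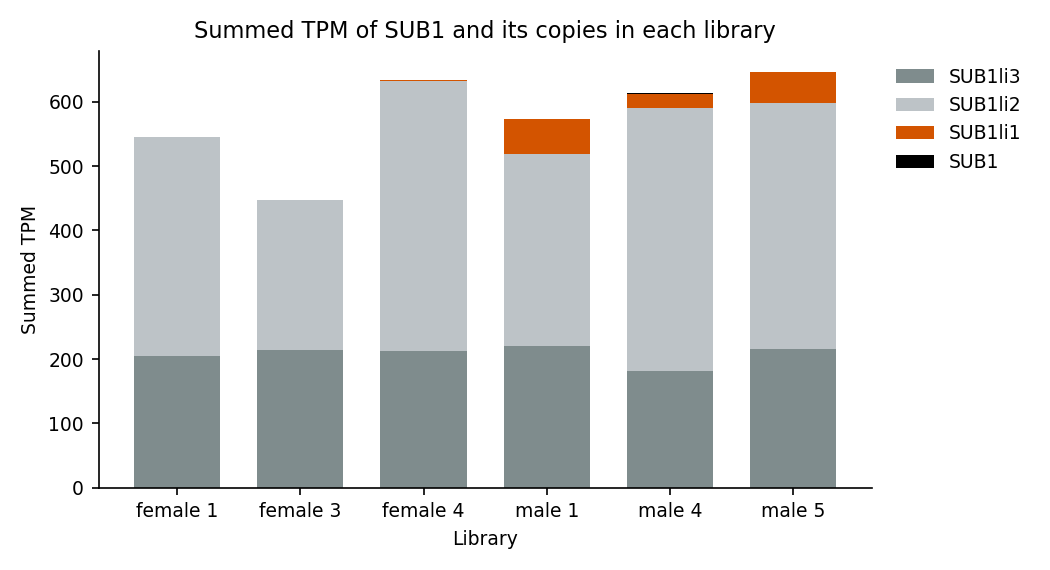
Summed TPM of SUB1 (black), SUB1li1 (orange), SUB1li2 (light grey) and SUB1li3 (dark grey) in each library, stacked from 0. The layer of SUB1li3 is nearly even at 182.2 to 221.1 TPM, SUB1li2 sets most of the difference in height, and the SUB1li1 layer is 21.9 to 54.4 TPM high in the males and at most 1.32 TPM in the females.

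No locus tested around the members passed the test, which does not show that their levels were equal. For each member, the 5 nearest tested loci on either side and any tested locus overlapping it were taken from the fit over all genes. These 66 loci held 0 genes called by limma at an adjusted p under 0.1 (Benjamini-Hochberg, within the autosomes), where 0.0143% of autosomal genes were called, and 0 with an unadjusted p under 0.05, where 5.04% were. Sexes did not overlap for 4 of the 66, against 9.81% of autosomal genes.

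PDE6D, which contains SUB1li1, was at 34.2, 31.4 and 32.1 TPM in females 1, 3 and 4, against 37.0, 30.6 and 26.4 TPM in males 1, 4 and 5. The sexes differed by 0.065 on the log2 scale, with a standard error of 0.192 and a limma p of 0.982 after Benjamini-Hochberg adjustment, and its females lay within the range of its males. COPS7B, a subunit of the COP9 signalosome and the nearest named gene outside PDE6D, was at 31.2 to 39.6 TPM, and differed by −0.080 on the log2 scale, with a standard error of 0.178 and a limma p of 0.973 after adjustment. Mean coverage of PDE6D was 22.8 to 36.0 reads per base in the 6 libraries, while that of SUB1li1 was 0.760 ± 1.104 (SD, n = 3) among females and 53.0 ± 24.3 (SD, n = 3) among males. The absolute log2 differences of the 11 loci around SUB1li1 reached 0.859, whereas the difference of SUB1li1 itself was −4.81.

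Near the other expressed members, the named neighbours did not pass the test either. Around SUB1li3 the log2 difference was −0.27 for ZFR (standard error 0.240), −0.24 for MTMR12, a myotubularin-related protein (standard error 0.260), and −0.074 for GOLPH3 (standard error 0.223). Around SUB1li2 it was −0.049 for RALY (standard error 0.262), −0.069 for NECAB3 (standard error 0.232) and 0.12 for AHCY, the enzyme that removes S-adenosylhomocysteine (standard error 0.211). After adjustment, the lowest limma p among all 66 loci was 0.925.

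**Figure D3:**
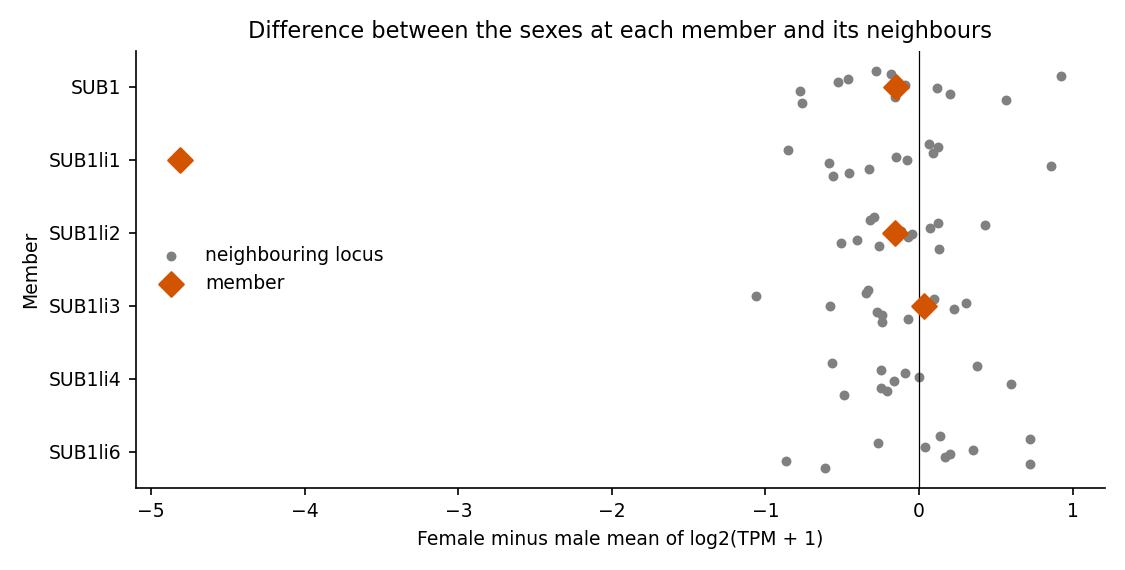
Female minus male mean of log2(TPM + 1) for each member (orange diamonds, drawn for the 4 above 0 TPM) and for its tested neighbouring or overlapping loci (grey points, 10 to 12 per member). SUB1li1 stands at −4.81, whereas its 11 neighbours lie within 0.859 of 0.

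SUB1 acts with the general transcription machinery, and no gene of it that was tested passed the test, which does not show equal levels. Of 56 genes in 4 lists, 40 were found under their plain name and 37 were tested. Gene-like copies of these genes were left out, so part of the machinery was not examined. POLR2C, which was tested, averaged only 0.126 TPM. Of these 37, 0 were called by limma at an adjusted p under 0.1, where 0.0174% of all autosomal and X-linked genes were called, and 1 had an unadjusted p under 0.05, where 5.01% of all genes did. Their median log2 difference was −0.023, and that of all 28740 genes tested was −0.032. Sexes did not overlap for 3 of the 37, namely TBP, TAF8 (log2 difference 0.38) and TAF11 (−0.11), against 9.81% of autosomal genes.

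Of the 12 subunits of RNA polymerase II, the enzyme that SUB1 helps to recruit, 7 were found and 6 tested, with a median log2 difference of 0.050. POLR2E was the strongest at 92.6 TPM on average (log2 difference 0.28, standard error 0.189), followed by POLR2I at 55.1 TPM (−0.088, standard error 0.320). POLR2K was listed at 0 in all libraries. Among the 18 general transcription factors, which place the polymerase on promoters, 12 were tested, with a median of −0.20. GTF2E2, a subunit of TFIIE, was at 86.5 TPM (−0.056, standard error 0.162) and ERCC3, a helicase of TFIIH, at 53.5 TPM (−0.12, standard error 0.178). TBP, the TATA-binding protein, was at 22.2, 23.6 and 23.8 TPM in females 1, 3 and 4, against 27.8, 25.4 and 30.1 TPM in males 1, 4 and 5. Every male lay above every female for TBP, but the difference of −0.24 on the log2 scale did not pass the test, with a standard error of 0.183 and a limma p of 0.925 after adjustment.

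Of the 15 subunits of TFIID, the complex that carries TBP, 13 were tested, with a median log2 difference of 0.10. TAF3 was the strongest at 409.6 TPM (−0.14, standard error 0.235) and TAF10 the next at 150.0 TPM (0.10, standard error 0.255). The list of 11 partners and cofactors had 8 found and 6 tested, with a median of 0.10. RPA3 was listed at 0 in all libraries. PSIP1, which was named for its interaction with SUB1, was at 75.6 TPM (0.13, standard error 0.213), and TOP1, a topoisomerase, at 49.5 TPM (−0.35, standard error 0.375). RPA2, a subunit of the main single-stranded DNA-binding complex, was the gene with an unadjusted p under 0.05. It had 41.0, 46.1 and 51.1 TPM in females 1, 3 and 4, against 30.2, 41.1 and 22.9 TPM in males 1, 4 and 5, so male 4 lay above female 1, and the difference of 0.57 on the log2 scale, with a standard error of 0.236, had a limma p of 0.925 after adjustment.

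Among gene families, a plain-named locus with almost none of the expression of its family was common in these tables. Of 1075 families with a plain-named locus, at least 1 gene-like copy and a summed mean of 10 TPM or more, the plain-named locus was not the highest in 603 (56.1%), and it held under 1% of the summed TPM in 431 (40.1%). The plain-named SUB1 held 0.0651% of the 576.7 TPM of its family, and 321 families had a lower share. This share is that of the locus with the plain name, which need not be the gene of origin. In the median family the share was 11.96%.

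Levels that switched between near 0 and well above it from library to library were seen in few gene-like copies. Of 7847 copies on the autosomes and the X chromosome outside the 2 segments left out, 951 reached 10 TPM in some library, and 27 of these 951 (2.84%) were also under 1 TPM in another. The share of all tested genes under these same bounds was not computed. SUB1li1 is among the 27, and its values are those that chose it, so its place is a description. By range of log2(TPM + 1) it was at rank 1 of the 27 and at rank 17 of all 28740 genes tested. The next of the 27 were DEFA5li2, with 0 to 38.1 TPM, ATP5PDli14, with 0.221 to 45.0 TPM, CBX7li1, with 0.442 to 51.1 TPM, and TSORFli1505, with 0 to 30.6 TPM. The sexes overlapped in these 4. Of all 27, the sexes did not overlap for 5, each with the males higher, namely SUB1li1, TSORFli1936, TSORFli1935, RPL21li164 and POLR2Hli1. TSORFli1936 had 0.867, 1.27 and 3.61 TPM in females 1, 3 and 4, against 9.61, 40.4 and 17.3 TPM in males 1, 4 and 5. Among all 2290 tested copies, the sexes did not overlap for 10% of them. Every male lay above every female for 4.97% of the autosomal genes tested.

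A stricter division asked for copies that were either under 2 TPM or at 10 TPM and above in each library, bounds that were set after the values were seen. This held for 7 of the 951 copies (0.736%), and for 162 of the 10325 tested genes that reached 10 TPM (1.57%). Of the 162, 2 were low in all animals of one sex and high in all of the other, SUB1li1, whose values chose it, and an unnamed locus on the X chromosome. The libraries with low values differed from copy to copy. ATP5PDli14, a 486 bp copy named after a subunit of ATP synthase on chromosome 8, was at 0.221 and 0.258 TPM in female 1 and male 4 and at 23.6 to 45.0 TPM in the other 4 libraries. RPL21li124, a 577 bp copy named after a ribosomal protein on the X chromosome, was at 0.557 and 0.673 TPM in females 3 and 4 and at 10.3 to 21.6 TPM in female 1 and the males. Among the 7 copies, SUB1li1, ATP5PDli14 and RPL21li124 were all 592 bp or shorter, and CBX7li1, TSORFli437, ANKRD26li4 and MIA3li2 spanned 4458, 18649, 159232 and 613611 bp. The median span of the 2290 tested copies was 20462 bp and 4.85% were shorter than SUB1li1.

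**Figure D4:**
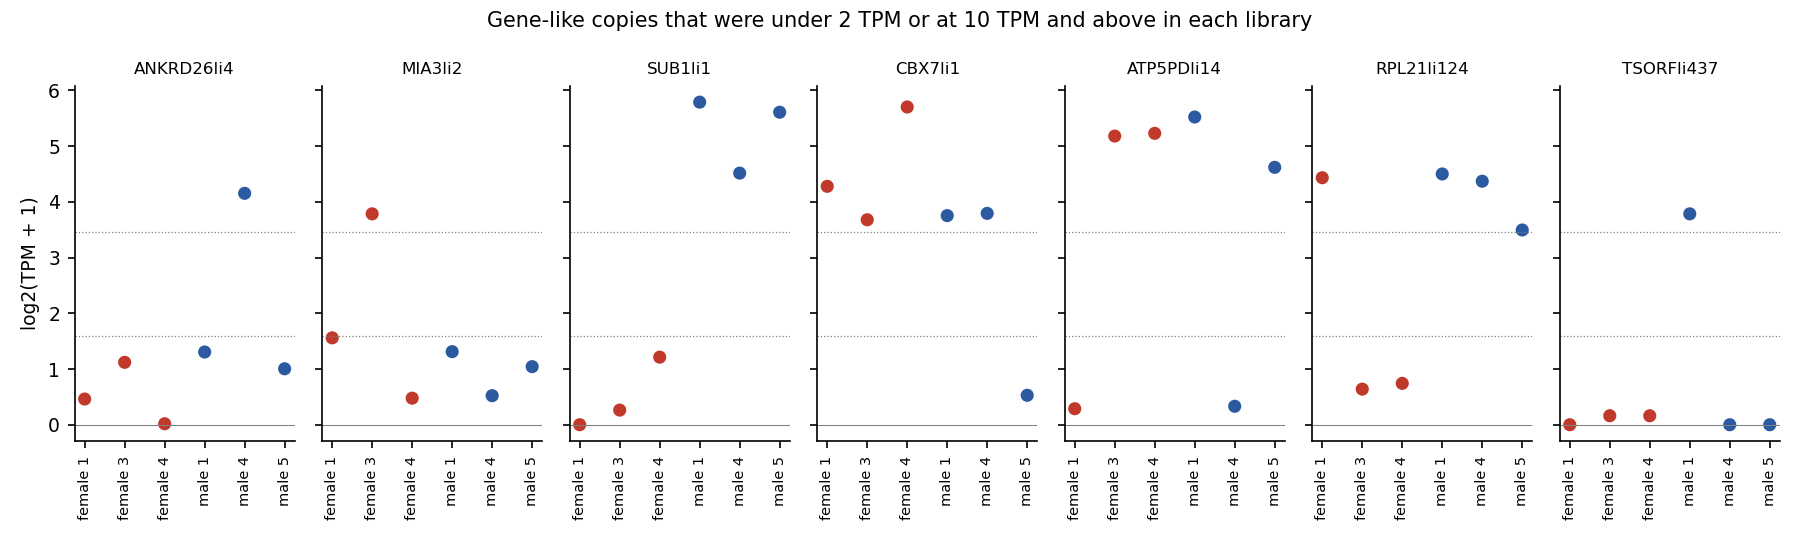
log2(TPM + 1) in each library (females red, males blue) for the 7 gene-like copies that were under 2 TPM or at 10 TPM and above in each library, with dotted lines at these bounds. SUB1li1 is low in the 3 females and high in the 3 males, ATP5PDli14 is low in female 1 and male 4, RPL21li124 in females 3 and 4, CBX7li1 in male 5, and the other 3 copies are high in a single library.

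The named gene whose levels were most like those of SUB1li1 was CALM, a calmodulin locus on chromosome 18, among named genes that reached 1 TPM in some library. Pearson's r of log2(TPM + 1) over the 6 libraries was 0.986 for CALM, followed by GLT8D2 (0.981), NME8 (0.978), HDHD3 (0.972) and NCKAP1L (0.971). CALM had 32.6 to 36.1 TPM for females but 72.6 to 79.0 TPM for males, a difference of far smaller ratio than that of SUB1li1. GLT8D2, a glycosyltransferase-like protein, was at 0.90, 1.47 and 3.10 TPM in females 1, 3 and 4, against 13.5, 6.74 and 9.95 TPM in males 1, 4 and 5, and kept the order of the libraries seen for SUB1li1. Of 11690 genes compared, 46 had an r over 0.9 with SUB1li1, 39 with SUB1li2 and 71 with SUB1li3, and 196 of 11691 had one with the near-silent SUB1. Likeness over 6 libraries is a description without a test. Because SUB1li1 was chosen on its split by sex, its ranking favours genes that also split by sex.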

How the data were processed

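The members, lists and alternatives were chosen with earlier results of these data known. Per the labels and the study's methods, the authors mapped reads to TS_3.0 with HISAT2 2.2.1, assembled transcripts with StringTie 2.2.1, merged them with the reference annotation and measured each animal against the merged set. The deposited tables give coverage (a signal of mean read depth, not scaled for library size), FPKM (proportional to TPM in each library) and TPM. The deposited TPM values sum to between 950532 and 971492. They are no counts, so the count test of the study could not be repeated.

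Rows with the same gene ID and chromosome were summed, leaving 95863 loci. The 2 segments of the X chromosome and chromosome 26 that the study left out were removed, and so were unplaced contigs. A gene was tested if 3 or more libraries had at least 0.1 TPM, which 28740 genes did. For these, log2(TPM + 1) was compared between females and males without covariates by limma 3.58.1 (R 4.3.3) using its intensity trend. Autosomal and X-linked genes were adjusted separately after Benjamini and Hochberg, and an adjusted p under 0.1 was called. The fit was tested on simulated data. Other values were computed with Python 3.11.15, numpy 2.4.6 and pandas 2.3.3 and drawn with matplotlib 3.10.9.

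Genes are named where they are members, named neighbours, list genes with an unadjusted p under 0.05 or among the 2 strongest of their list, cell type markers, the most and least correlated named genes for SUB1, the most correlated ones for SUB1li1, or the 5 gene-like copies with the widest range among those that reached 10 TPM in one library and fell under 1 TPM in another. List genes and wide-ranging copies whose sexes did not overlap, the copies under 2 TPM or at 10 TPM and above throughout, genes with levels like SUB1li2 and SUB1li3 and genes opposite to SUB1li1 were named after their values were seen. Genes were matched by exact symbol, and RefSeq's table of TupChi_1.0 was used for names and neighbours only. No sequences of the members were used here.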

Additional observations from a re-analysis of the deposited data

How the results depend on the processing

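The difference of SUB1li1 kept its direction under every alternative run, and its size depended on the scale. From −4.81 it went to −6.79 with a pseudocount of 0.1, to −8.09 with 0.01 and to −3.25 with FPKM, and SUB1 and SUB1li1 together went from −4.51 to −5.55, −5.73 and −3.17. With each library left out, SUB1li1 stayed between −5.21 and −4.57, this sum between −4.89 and −4.27, and the female minus male share of SUB1li1 in the 6 members, −6.73 percentage points, between −8.35 and −5.40. The differences of SUB1, SUB1li2 and SUB1li3 were smaller than the spread within the sexes and changed sign with single libraries left out, over −0.40 to 0.033, −0.35 to 0.073 and −0.056 to 0.083. Alternatives for the members other than SUB1 and SUB1li1 were chosen after the values were seen. The autosomal genes called numbered 4, and 2 to 5 with each library left out (2 without female 1 and 2 without male 5). Without the trend, limma called 0, with 1461 at an unadjusted p under 0.05. With the animal number as a replicate block, 2 were called. The sexes share the numbers 1 and 4 only, and deviations from the sex means of same-numbered animals correlated at 0.00098 and 0.038. Over all female and male pairs the correlations ran from −0.059 to 0.063. No pairing was seen, but so few shared numbers cannot exclude one. No alternative called a transcription gene or a neighbouring locus. The tables hold no read counts, so limits on values of 0 rest on coverage and locus length, and none is given for SUB1li6, whose transcript length is not known here.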

Other observations

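Named genes with levels like those of the other members were also found. For SUB1li3 the most like named genes over the 6 libraries were RBAK (Pearson's r of log2(TPM + 1) 0.995), TTC14 (0.984), SEC23IP (0.984), ZFP39li28 (0.981) and FAM200A (0.980), each lowest in male 4 and highest in male 1, as SUB1li3 was. For SUB1li2 they were TMEM218 (0.985), which lies on chromosome 9 as SUB1li2 does, RBP4 (0.974), RHEB (0.973), ARHGAP9 (0.965) and TSORFli569 (0.964). RHEB, the small GTPase that activates mTORC1, ranged from 181.9 to 221.3 TPM with its lowest value in female 3 and its highest in female 4, the same animals as for SUB1li2. The plain-named SUB1, under 1 TPM throughout, was too low for such a comparison to carry weight, with INPP5B (0.994), RASA2 (0.990), DNAAF5 (0.986), ANKK1li1 (0.985) and SLC20A2 (0.984) as the most like genes and NOP56 (−0.989), THSD7Bli1 (−0.987) and UROS (−0.983) as the most opposite.

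The genes with levels most opposite to SUB1li1 were RPL21li93 (Pearson's r −0.990), IRF7 (−0.986) and TSORFli387 (−0.985). IRF7, a transcription factor of the interferon response, was at 4.91, 4.19 and 4.32 TPM in females 1, 3 and 4 and at 1.64, 2.22 and 1.44 TPM in males 1, 4 and 5. RPL21li93, a copy named after a ribosomal protein, ranged from 16.9 to 19.8 TPM among females, above the 8.75 to 11.7 TPM of the males. These values are descriptions over 6 libraries, without a test, and the sex split that chose SUB1li1 favours such genes in this ranking.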
